A study of Mus musculus with 6 samples.

Results

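The genes of inhibitory neurotransmission by GABA (gamma-aminobutyric acid) were followed in hippocampal poly(A) RNA of mice lacking the microRNA miR-301a and of wild-type mice. The set was defined by gene name and function. It held GABA receptor subunits, the enzymes that make and break down GABA, its vesicular and plasma membrane transporters, the chloride transporters that set the polarity of its response, and scaffold and trafficking proteins. All 27 named genes were found among the 54393 genes of the deposited table. The knockout group comprised 3 libraries from untreated miR-301a-/- mice, with the title codes 1-1, 2-2 and 3-1. The wild-type group comprised 3 libraries from untreated mice with the codes 1-1, 2-1 and 2-2. All animals were C57BL/6 and 6 to 8 weeks old, and no other allele or agent is given for either group. The sources used here do not give how the deletion was made or whether it is restricted to a cell type. The labels do not tie libraries to separate animals, so every p-value is set against variation among libraries, some of which may be technical.

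GABA is made from glutamate by the glutamic acid decarboxylases, loaded into vesicles by a single vesicular carrier and removed from the cleft by transporters on neurons and glia. GABA-A receptors are pentameric chloride channels whose subunit makeup decides where they sit and how they respond. In the hippocampus, receptors with the alpha subunit of Gabra5 are known for tonic inhibition of pyramidal cells, and those with the delta subunit of Gabrd for tonic inhibition of dentate granule cells. GABA-B receptors are heterodimers of Gabbr1 and Gabbr2 that act through G proteins on potassium and calcium channels.

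The microRNA removed in these mice and the stretches of GABA transcripts that could pair with it are shown first, because this microRNA is what the 2 genotypes differ in by label. The mature sequences are from RefSeq (GRCm38.p6), with bases 2 to 8, the seed, in capitals:
mmu-miR-301a-3p: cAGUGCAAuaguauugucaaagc
mmu-miR-130a-3p: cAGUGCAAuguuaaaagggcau
mmu-miR-130b-3p: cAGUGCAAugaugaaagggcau
The letters from base 2 to base 8 were the same in all 3. miR-301a-3p is encoded at chr11:87113054-87113076 on the plus strand, and the genes of the other 2 lie on chromosomes 2 and 16, outside the deleted microRNA. The longest annotated 3' UTR of each GABA gene was read on the transcript strand for TTGCACT, the heptamer that pairs with these bases. It occurred once each in Gad2, Gabrg3 and Gabrq, and is printed below in capitals with its flanks, 5' to 3' on the transcript (GENCODE M21, GRCm38):
Gad2, chr2:22691347-22691375, plus strand: ctgtttagatgTTGCACTagttgacctcg
Gabrg3, chr7:56722864-56722892, minus strand: ttctagtactgTTGCACTagatgaagtag
Gabrq, chrX:72841639-72841667, plus strand: cccagcttgatTTGCACTgtggggtgtct
In Gad2 and Gabrg3 the heptamer was followed by A, which makes it the octamer TTGCACTA. The heptamer was thus present in 3 of 27 members. Over all tested genes with an annotated 3' UTR it was present in 1558 of 12744, or 12.2%, and the octamer in 2.55%. The members' 3' UTRs were longer, with a median of 2137 nt against 1250 nt over all tested genes. The shorter TGCACT, which the heptamer contains, was present in 11 of 27 members, in 8 of them without the heptamer, and in 35.3% of all tested genes with a 3' UTR. The member figures, median length included, also cover Gabre, Gabrq and Gabrr2, which were not among the tested genes. Of these, Gabrq held the heptamer, and Gabre and Gabrq held TGCACT. These matches describe the letters and show no binding.

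The deposited values are read as FPKM-like, meaning that reads are divided by the length of the gene and by the depth of the library. Each library had 24101 to 25121 genes above 0. Depth was estimated from the smallest steps of the values, in units of 1000000 reads and assuming the usual FPKM scale. It was 16.7 to 26.4 such units in knockout libraries and 19.6 to 27.8 in wild-type libraries. Mir301, the gene of the microRNA, had a listed value of 0 in each of the 6 libraries, so the genotype labels cannot be checked by it. Of the 7 CA1, 11 CA3 and 10 granule cell markers, none was at 0 in all libraries. The granule cell factor Prox1, for example, was at 12.7, 20.3 and 21.6 in knockout 1-1, 2-2 and 3-1 and at 18.7, 19.5 and 16.3 in wild type 1-1, 2-1 and 2-2.

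None of the GABA genes passed the test between genotypes. The values were compared as log2(value + 1) with limma over 14708 genes that reached 1 in no fewer than 3 libraries, and 24 of the 27 members were among them. With limma, 0 of 24 had a Benjamini-Hochberg adjusted p under 0.05, where 0.109% of all tested genes did (8 genes or 0.0544% higher in the knockout, and 8 genes or 0.0544% lower). The smallest adjusted p among the members was 0.801. At an unadjusted limma p under 0.05, 3 members were higher in the knockout and 0 lower, or 12.5% of the tested members, where 2.61% of all tested genes were higher and 3.11% lower. These 3 were Gabrb1, Slc6a11 and Gad2. With 1 library left out at a time, there were from 2 such members (without knockout 2-2 or wild type 2-2) to 5 (without knockout 1-1). Of these 5, 4 were higher. The authors' deposited table gave every member an adjusted p of 1. Its unadjusted p-values do not grade small changes, being the same for Gabrb1 (deposited log2 fold change 0.215) as for Gabra4 (0.0113). It is therefore no separate check on the limma result.

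More members had higher than lower means in the knockout. Of the 24 tested, 18 had a positive and 6 a negative log2 fold change (knockout over wild type), with a median of 0.06. Over all tested genes the median was -0.00383 and 48.8% were positive. When 1 library at a time was left out, the positive members numbered from 14 of 24 (without knockout 3-1) to 18 (without knockout 1-1). Their median then ran from 0.040 (without wild type 2-1) to 0.078 (without knockout 2-2). In 4 members, Gabrb1, Slc6a11, Gad2 and Aldh5a1, all 3 knockout libraries lay above all 3 wild-type libraries, or 16.7% of the tested members, where 5.7% of all tested genes did. No member had all knockout libraries below the wild type, where 5.67% of all tested genes did. Members of one pathway are not independent of each other.

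**Figure D1:**
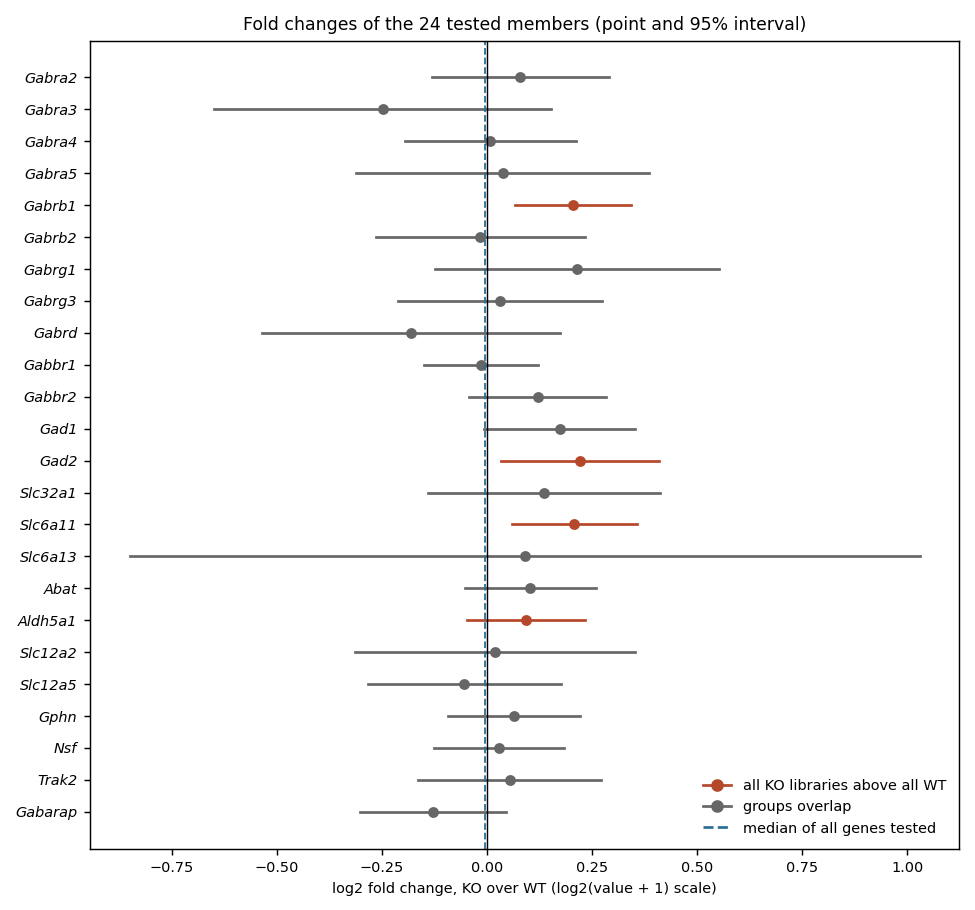
Log2 fold change of each tested member, knockout (KO) over wild type (WT), on the log2(value + 1) scale, with its 95% interval from limma (n = 3 libraries a group). Gabrb1, Slc6a11, Gad2 and Aldh5a1, drawn in red, had no overlap between the groups, and the intervals of the first 3 lay above 0.

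The genes of GABA synthesis and release had higher mean values in the knockout. Gad2 and Gad1 encode the decarboxylases, of which the Gad2 product is enriched at nerve terminals, and Slc32a1 encodes the vesicular carrier. Gad2 (chr2:22622205-22693874, plus strand) had values of 37.3, 42.3 and 37.7 in knockout 1-1, 2-2 and 3-1, against 36.2, 31.8 and 32.2 in wild type 1-1, 2-1 and 2-2. The groups did not overlap, but the gap between the lowest knockout and the highest wild-type library was small. The means were 39.1 ± 2.76 in knockout and 33.4 ± 2.45 in wild type (SD, n = 3 each), which limma put at a log2 fold change of 0.22 (SE 0.08, unadjusted p = 0.0269, adjusted p = 0.832).

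Gad1, the more abundant of the pair, had values of 109.3, 124.1 and 120.4 in knockout 1-1, 2-2 and 3-1, against 105.1, 111.5 and 97.1 in wild type 1-1, 2-1 and 2-2. Only knockout 1-1 lay within the wild-type range. Its limma log2 fold change was 0.17 (SE 0.08, unadjusted p = 0.0581, adjusted p = 0.877). Slc32a1 was at 33.5, 41.5 and 35.5 in the knockout libraries and at 38.3, 32.5 and 29.6 in the wild-type libraries, in the same order of codes. These ranges overlapped widely, with wild type 1-1 above knockout 1-1 and 3-1 (log2 fold change 0.13, SE 0.12, limma adjusted p = 0.918). This log2 fold change was 0.05 without knockout 2-2, also 0.05 without wild type 2-2, and 0.23 without wild type 1-1. Summed over the 3 genes, the values were 180.1, 207.9 and 193.6 in the knockout libraries and 179.7, 175.8 and 158.8 in the wild-type libraries, so that knockout 1-1 and wild type 1-1 were nearly level.

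These genes are transcribed mainly in interneurons, and in bulk tissue more cells of a type and more RNA per cell cannot be told apart. Of 20 interneuron markers, all of them tested, 12 had a positive and 8 a negative log2 fold change, with a median of 0.05. None of them was at 0 in all libraries. Their summed value was 1384 to 1460 in knockout libraries and 1373 to 1554 in wild-type libraries. Most of this sum is Cck and Sst, with means of 677.1 and 373.8 in knockout and 709.5 and 412.9 in wild type. At an unadjusted limma p under 0.05, the receptor kinase gene Erbb4, the cannabinoid receptor gene Cnr1 and Reln were higher (log2 fold changes 0.25, 0.26 and 0.31) and Lamp5 was lower (-0.24). Over all tested genes 2.61% were higher and 3.11% lower at that p. Sst, which marks somatostatin cells and was picked out after its values were seen, was at 271.9, 416.7 and 432.8 in knockout 1-1, 2-2 and 3-1, against 462.6, 369.4 and 406.6 in wild type 1-1, 2-1 and 2-2. The part of interneuron number in the values of Gad1 and Gad2 was not tested.

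**Figure D2:**
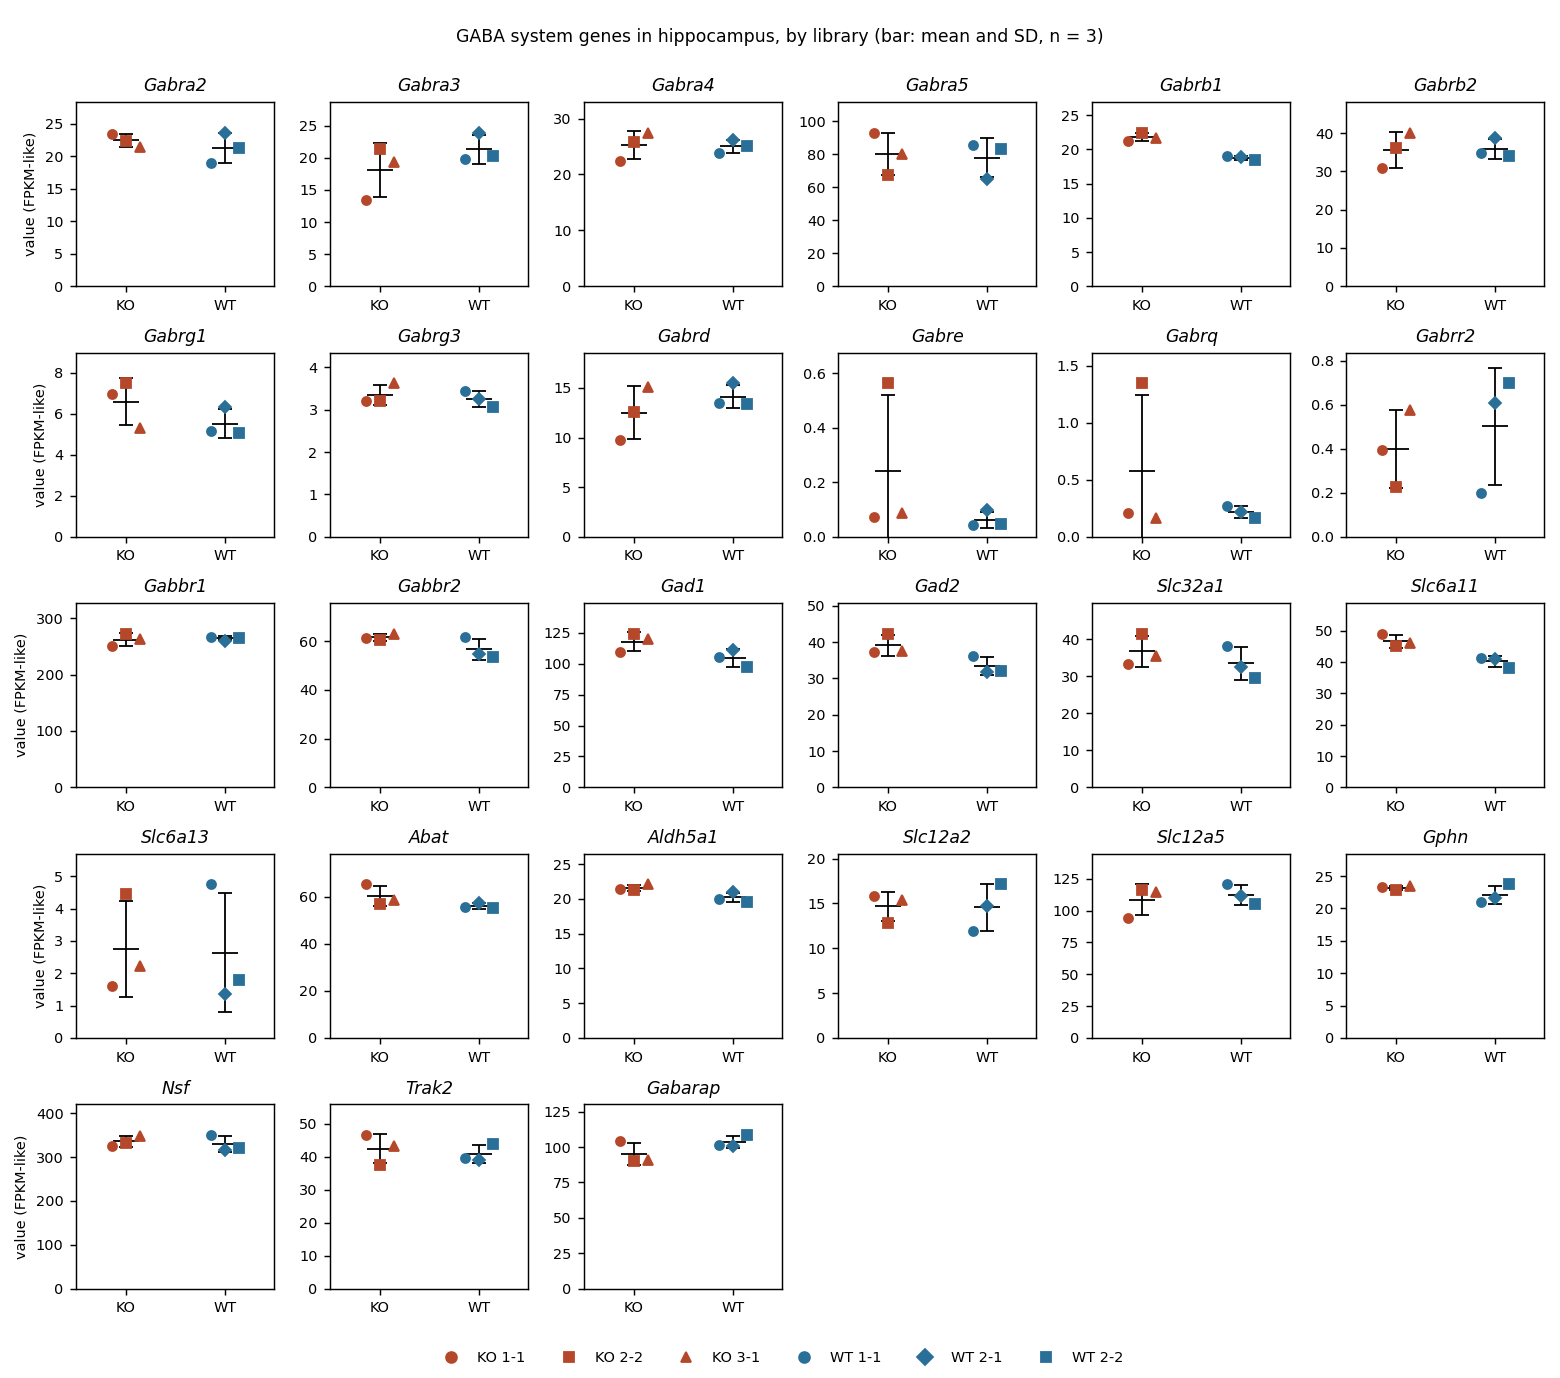
Value of each of the 27 members in every library, with knockout (KO) left and wild type (WT) right in each panel; points are libraries, and bars give the mean and SD (n = 3, cut off at 0). The 3 knockout points lie above the wild-type points in Gabrb1, Gad2, Slc6a11 and Aldh5a1, and 1 knockout library stands alone in Gabre and Gabrq.

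The genes of GABA uptake and breakdown also had higher means in the knockout. Slc6a11 encodes a GABA transporter known mainly from astrocytes (chr6:114131241-114249952, plus strand). It had values of 49.0, 45.0 and 46.0 in knockout 1-1, 2-2 and 3-1, against 41.5, 41.1 and 38.2 in wild type 1-1, 2-1 and 2-2. Every knockout library was above every wild-type library, by a margin wider than the range within wild type but narrower than that within knockout. The means were 46.7 ± 2.09 in knockout and 40.3 ± 1.81 in wild type (SD, n = 3 each), which limma put at a log2 fold change of 0.21 (SE 0.06, unadjusted p = 0.0127, adjusted p = 0.832). Its fold change on this scale was 1.16, with a 95% interval of 1.04 to 1.28.

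Abat encodes GABA transaminase, and Aldh5a1 the dehydrogenase that passes its product on to the citric acid cycle. Abat was at 65.3, 57.1 and 58.9 in knockout 1-1, 2-2 and 3-1, against 55.8, 57.5 and 55.2 in wild type 1-1, 2-1 and 2-2. Knockout 1-1 was the highest of all 6 libraries, and the others lay close together (limma log2 fold change 0.10, SE 0.07, adjusted p = 0.893). Aldh5a1 was at 21.4, 21.4 and 22.1 in the knockout libraries and at 20.1, 21.0 and 19.6 in the wild-type libraries, in the same order. The groups did not overlap but differed by only 0.09 on the log2 scale (limma SE 0.06, unadjusted p = 0.163, adjusted p = 0.893). Aldh5a1 shares 796 nt of its exons with an antisense gene whose mean value was 0.656, and Slc32a1 shares 697 nt with one at 2.21. Summed over the 4 genes of uptake and breakdown, the values were 127.9 to 137.4 in knockout libraries and 114.8 to 122.1 in wild-type libraries. Most of this sum is Abat (mean 58.3 over all libraries) and Slc6a11 (43.5), so it largely repeats the values of these genes.

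Of 12 astrocyte markers, 6 had a positive and 6 a negative log2 fold change, with a median of 0.05, and none was at 0 in all libraries. Their summed value was 1015 to 1159 in knockout libraries and 1001 to 1071 in wild-type libraries. At an unadjusted limma p under 0.05, the gap junction gene Gja1 was higher (log2 fold change 0.24) and the filament gene Gfap lower (-0.29). The shares over all tested genes were 2.61% higher and 3.11% lower. The part of astrocyte content in the value of Slc6a11 was not tested.

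The remaining member of this group, Slc6a13, encodes a GABA transporter known from the meninges and blood vessels. It had values of 1.61, 4.44 and 2.21 in knockout 1-1, 2-2 and 3-1, against 4.75, 1.35 and 1.80 in wild type 1-1, 2-1 and 2-2. Knockout 2-2 and wild type 1-1 stood well above the other 4 libraries, and the genotypes overlapped (limma log2 fold change 0.09, SE 0.40, adjusted p = 0.983). Without wild type 1-1 this log2 fold change was 0.48, and it was negative without knockout 2-2 (-0.21), wild type 2-1 (-0.17) or wild type 2-2 (-0.04). The summed value of 12 meningeal fibroblast markers was likewise highest in these 2 libraries. It was 511.5, 810.5 and 430.5 in knockout 1-1, 2-2 and 3-1, against 926.2, 396.1 and 443.0 in wild type 1-1, 2-1 and 2-2. Most of this sum is Ptgds, but Fmod, a matrix protein gene of fibroblasts picked out after its values were seen, showed the same split, with 3.84 in knockout 2-2, 3.91 in wild type 1-1 and 0.989 to 1.65 elsewhere. Whether meningeal tissue accounts for the Slc6a13 values was not tested.

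Of the 4 GABA-A alpha subunits in the set, Gabra5 was the most abundant, and none passed limma's adjusted threshold. Gabra5 had values of 93.0, 67.5 and 79.9 in knockout 1-1, 2-2 and 3-1, against 85.9, 64.7 and 83.4 in wild type 1-1, 2-1 and 2-2. The spread within each genotype was larger than the difference between them (limma log2 fold change 0.04, SE 0.15, adjusted p = 0.983). Gabra4, the usual partner of the delta subunit in the dentate gyrus, was at 22.4, 25.8 and 27.4 in the knockout libraries and at 23.9, 26.1 and 25.0 in the wild-type libraries (log2 fold change 0.01). Gabra2, an alpha subunit of synaptic receptors, was at 23.5, 22.4 and 21.5 in the knockout libraries and at 19.0, 23.6 and 21.2 in the wild-type libraries (0.08). In both the groups overlapped, and the limma 95% intervals of the fold ran from 0.873 to 1.16 and from 0.913 to 1.22.

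Gabra3 is X-linked. Its values were 13.4, 21.4 and 19.4 in knockout 1-1, 2-2 and 3-1, against 19.8, 23.9 and 20.3 in wild type 1-1, 2-1 and 2-2. The low value of knockout 1-1 set it apart, while the other knockout libraries were within or just below the wild-type range. By limma the log2 fold change was -0.25 (SE 0.17, adjusted p = 0.893). It was -0.06 without knockout 1-1 and -0.38 without knockout 2-2.

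Of the beta subunits, Gabrb1 had the smallest p-value of any member. It is one of the subunits that form the GABA binding site together with an alpha subunit (chr5:71658113-72149037, plus strand). Gabrb1 had values of 21.3, 22.4 and 21.6 in knockout 1-1, 2-2 and 3-1, against 19.0, 18.8 and 18.4 in wild type 1-1, 2-1 and 2-2. The 3 libraries of each genotype lay close together and the groups were well apart. The means were 21.8 ± 0.590 in knockout and 18.7 ± 0.341 in wild type (SD, n = 3 each), which limma put at a log2 fold change of 0.21 (SE 0.06, unadjusted p = 0.00997, adjusted p = 0.801). The fold was 1.15 with a 95% interval of 1.05 to 1.27. Its 3' UTR of 12228 nt held TGCACT 5 times but not the heptamer. Gabrb1 shares 46 nt of exonic sequence with its neighbour Gabra4, which runs on the other strand and had a log2 fold change of 0.01, and the sources used here do not say whether reads were counted by strand. Gabrb2 was at 30.8, 36.0 and 40.1 in the knockout libraries and at 34.7, 38.8 and 34.1 in the wild-type libraries, with overlapping groups (log2 fold change -0.02).

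Gabrg1, Gabra2, Gabra4 and Gabrb1 lie in one cluster on chromosome 5. Gabrg1, a gamma subunit known from astrocytes and some neurons, had values of 6.97, 7.48 and 5.31 in knockout 1-1, 2-2 and 3-1, against 5.17, 6.33 and 5.04 in wild type 1-1, 2-1 and 2-2. Knockout 1-1 and 2-2 lay above all wild-type libraries and knockout 3-1 did not (limma log2 fold change 0.21, SE 0.14, adjusted p = 0.893). The log2 fold change was 0.34 without knockout 3-1 (limma unadjusted p = 0.0364) and 0.13 without knockout 2-2. Gabrg3, which carries the octamer, was at 3.21, 3.20 and 3.62 in the knockout libraries and at 3.43, 3.26 and 3.07 in the wild-type libraries. Its groups overlapped (log2 fold change 0.03, limma 95% interval of the fold 0.863 to 1.21). Of the 2 members with the octamer, Gad2 thus had separate groups and Gabrg3 overlapping ones.

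Gabrd had values of 9.75, 12.6 and 15.1 in knockout 1-1, 2-2 and 3-1, against 13.5, 15.5 and 13.4 in wild type 1-1, 2-1 and 2-2. Knockout 1-1 was again the lowest library, and the groups overlapped. The limma log2 fold change was -0.18 (SE 0.15, adjusted p = 0.918). It was -0.03 without knockout 1-1, -0.12 without wild type 2-1 and -0.32 without knockout 3-1. The summed value of 10 dentate granule cell markers was lowest in the same library, at 138.7, 209.5 and 214.1 in knockout 1-1, 2-2 and 3-1, against 204.6, 209.4 and 177.0 in wild type 1-1, 2-1 and 2-2. Knockout 1-1 also had the highest summed value of 11 CA3 pyramidal cell markers (387.0, against 253.5 to 333.6 in the other 5 libraries). The part of subfield content in the values of Gabra3 and Gabrd was not tested.

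**Figure D3:**
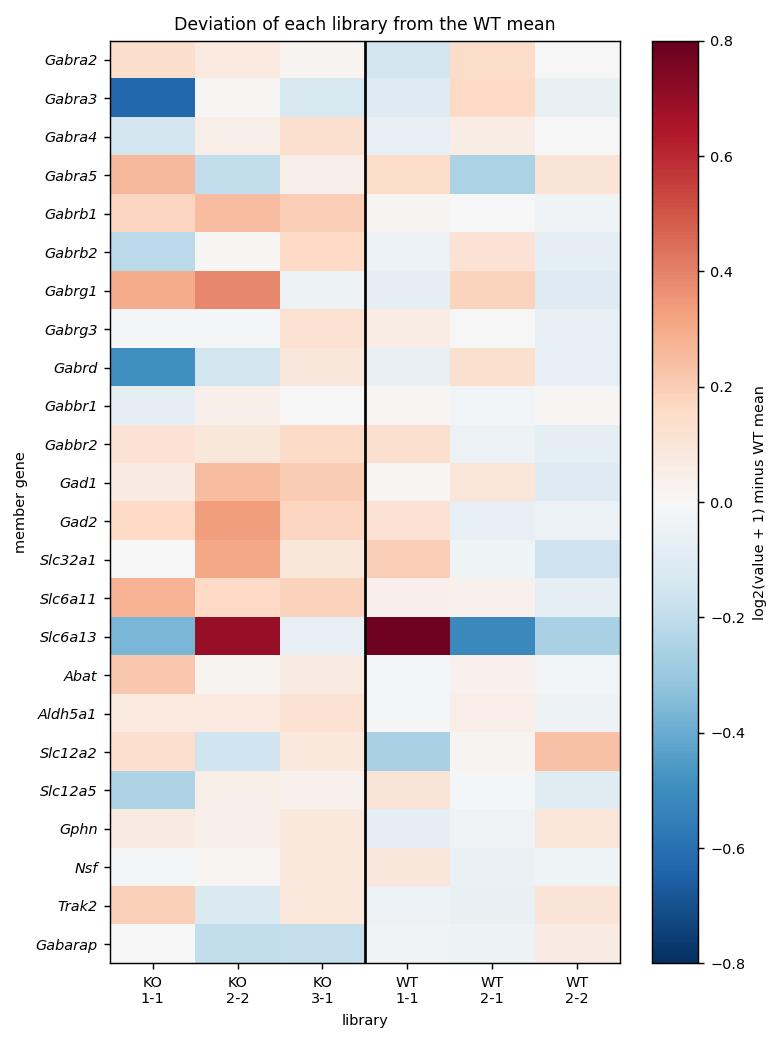
Deviation of each library (columns, knockout left of the line) from the wild-type mean of the gene, in log2(value + 1), for the 24 tested members (rows). Knockout 1-1 is lowest in Gabra3 and Gabrd, and Slc6a13 is high in knockout 2-2 and wild type 1-1.

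The epsilon, theta and rho subunit genes Gabre, Gabrq and Gabrr2 were too low to be tested. Gabre and Gabrq, which are known mainly from the hypothalamus, amygdala and brainstem, flank Gabra3 on the X chromosome. Gabre was at 0.0722, 0.564 and 0.0868 in knockout 1-1, 2-2 and 3-1, against 0.0427, 0.0972 and 0.0486 in wild type 1-1, 2-1 and 2-2. Gabrq was at 0.206, 1.35 and 0.168 in the knockout libraries and at 0.269, 0.219 and 0.162 in the wild-type libraries, in the same order. Each was several-fold higher in knockout 2-2 than in any other library, and the remaining 5 libraries of the 2 genotypes overlapped. Given the full exonic length, the value of Gabre in knockout 2-2 stands for at most 44.5 reads and that of Gabrq for at most 120.1. Gabra3 between them had no such peak in knockout 2-2.

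A further pair of genes, picked out after their values were seen and known for high levels in the hypothalamus, was also highest in knockout 2-2. Avp, the vasopressin gene, was at 0.223, 6.89 and 0.770 in knockout 1-1, 2-2 and 3-1, against 0.501, 0.149 and 0.317 in wild type 1-1, 2-1 and 2-2. Hap1, a trafficking partner of GABA-A receptors, was at 44.7, 115.8 and 58.9 in the knockout libraries and at 64.8, 66.5 and 46.5 in the wild-type libraries. The summed value of 14 striatal, thalamic and hypothalamic markers was 65.0 in knockout 2-2 and 51.2 to 58.8 elsewhere, with none of the 14 at 0 in all libraries and 4 below 1 in every library. Without Avp, the sum of the other 13 was 58.1 in knockout 2-2, within the range of the other libraries (51.0 to 58.5). Other hypothalamic markers of the list went both ways in knockout 2-2. Pmch was at 0 there and 0.153 to 0.435 elsewhere, and Pomc at 1.30 there and 1.08 to 1.81 elsewhere. Hcrt (0.367) and Oxt (0.216) were at their highest there, against 0 to 0.155 and 0 to 0.183 elsewhere. Agrp, at 0.144, lay within the range of the other libraries (0 to 0.369). The part of tissue from outside the hippocampus in these values was not tested. Gabrr2, a rho subunit best known from retina, was at 0.225 to 0.577 in knockout and 0.200 to 0.697 in wild type.

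**Figure D4:**
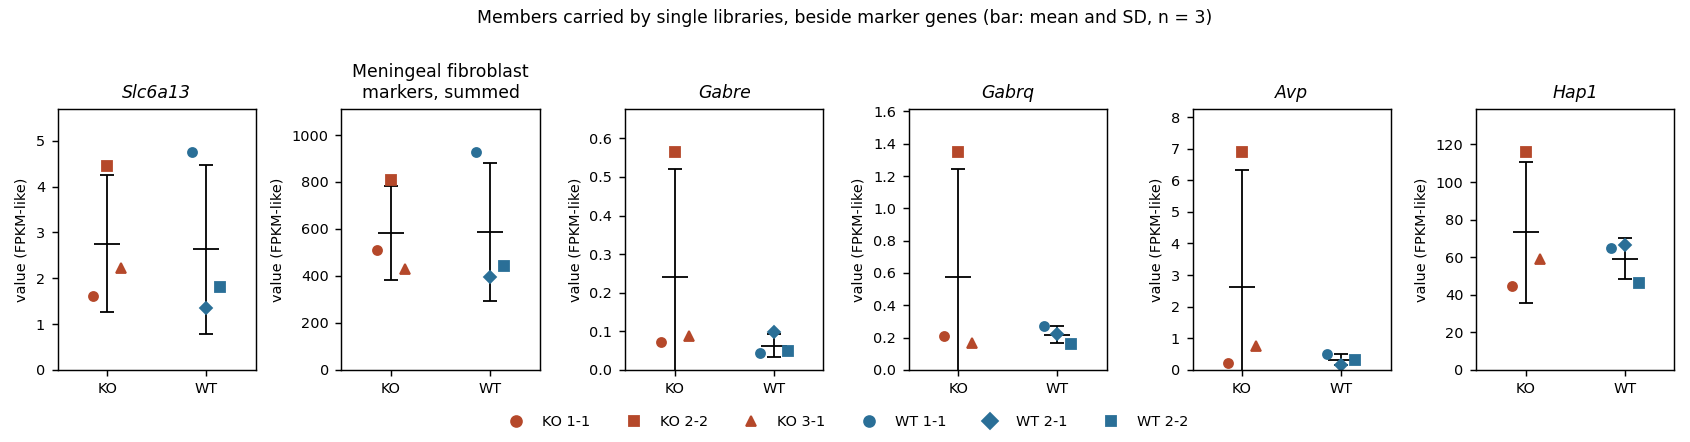
Values by library of Slc6a13 beside the summed meningeal fibroblast markers, and of Gabre and Gabrq beside Avp and Hap1 (knockout left, wild type right; bars give mean and SD, n = 3, cut off at 0). Slc6a13 and the meningeal sum are high in knockout 2-2 and wild type 1-1, and the other 4 genes are highest in knockout 2-2.

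Neither GABA-B receptor gene passed limma's adjusted threshold. Gabbr1, whose product binds GABA, had values of 250.0, 272.0 and 263.7 in knockout 1-1, 2-2 and 3-1, against 267.3, 260.0 and 265.4 in wild type 1-1, 2-1 and 2-2. The groups overlapped, and the limma 95% interval of the fold ran from 0.902 to 1.09. Gabbr2, whose product couples to G proteins, was at 61.3, 60.3 and 63.0 in the knockout libraries and at 61.7, 54.7 and 53.4 in the wild-type libraries. Wild type 1-1 lay within the knockout range and the other 2 wild-type libraries below it (limma log2 fold change 0.12, SE 0.07, adjusted p = 0.893).

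The chloride transporters differed by less than the spread between libraries. Slc12a5 encodes the neuronal chloride exporter and Slc12a2 a chloride importer. Slc12a5 was at 94.4, 115.9 and 115.0 in knockout 1-1, 2-2 and 3-1, against 120.6, 111.3 and 105.0 in wild type 1-1, 2-1 and 2-2. Slc12a2 was at 15.9, 12.8 and 15.3 in the knockout libraries and at 11.9, 14.7 and 17.1 in the wild-type libraries. Groups overlapped in both genes, with limma log2 fold changes of -0.05 and 0.02 and 95% intervals of the fold of 0.822 to 1.13 and of 0.805 to 1.28.

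Among the scaffold and trafficking genes, Nsf, an ATPase of membrane fusion that also binds GABA-A receptor-associated proteins, was the most abundant member of all. It had values of 325.2, 333.1 and 349.0 in knockout 1-1, 2-2 and 3-1, against 350.2, 317.2 and 321.0 in wild type 1-1, 2-1 and 2-2. Gabarap, an adaptor that binds GABA-A receptors and belongs to the autophagy ubiquitin-like family, had values of 104.0, 90.3 and 90.6 in knockout 1-1, 2-2 and 3-1, against 101.8, 100.9 and 108.5 in wild type 1-1, 2-1 and 2-2. Knockout 2-2 and 3-1 lay below the wild-type range and knockout 1-1 within it (limma log2 fold change -0.13, SE 0.07, adjusted p = 0.893). Gphn, which encodes gephyrin, the scaffold under inhibitory synapses, was at 23.3, 22.8 and 23.4 in the knockout libraries and at 21.0, 21.7 and 23.7 in the wild-type libraries. Trak2, a kinesin adaptor, was at 46.6, 37.6 and 43.3 in the knockout libraries and at 39.5, 39.1 and 43.9 in the wild-type libraries. The groups of Nsf, Gphn and Trak2 overlapped, with log2 fold changes of 0.03, 0.06 and 0.05.

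Ratios of partner genes were taken within each library, since these need no scaling between libraries. The ratio of Slc12a2 to Slc12a5 was 0.168, 0.111 and 0.133 in knockout 1-1, 2-2 and 3-1, against 0.0987, 0.132 and 0.163 in wild type 1-1, 2-1 and 2-2. The ratio of Gad1 to Gad2 was 2.93, 2.94 and 3.20 in the knockout libraries and 2.90, 3.51 and 3.02 in the wild-type libraries. In both the ranges overlapped, and exact two-sided permutation tests gave p = 0.7 for each (n = 3 each). The ratio of Gabrd to Gabra4 was 0.434, 0.489 and 0.550 in the knockout libraries and 0.564, 0.592 and 0.534 in the wild-type libraries. The ratio of Gabbr1 to Gabbr2 was 4.08, 4.51 and 4.19 in the knockout libraries and 4.33, 4.75 and 4.97 in the wild-type libraries. The knockout mean was lower in these 2, by 0.20 and 0.14 on the log2 scale, with some overlap and an exact permutation p = 0.2 for each. Adjusted over the 4 ratios, p was 0.4 for these 2 and 0.7 for the others. With 3 libraries against 3 the exact test cannot go below 0.1.

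**Figure D5:**
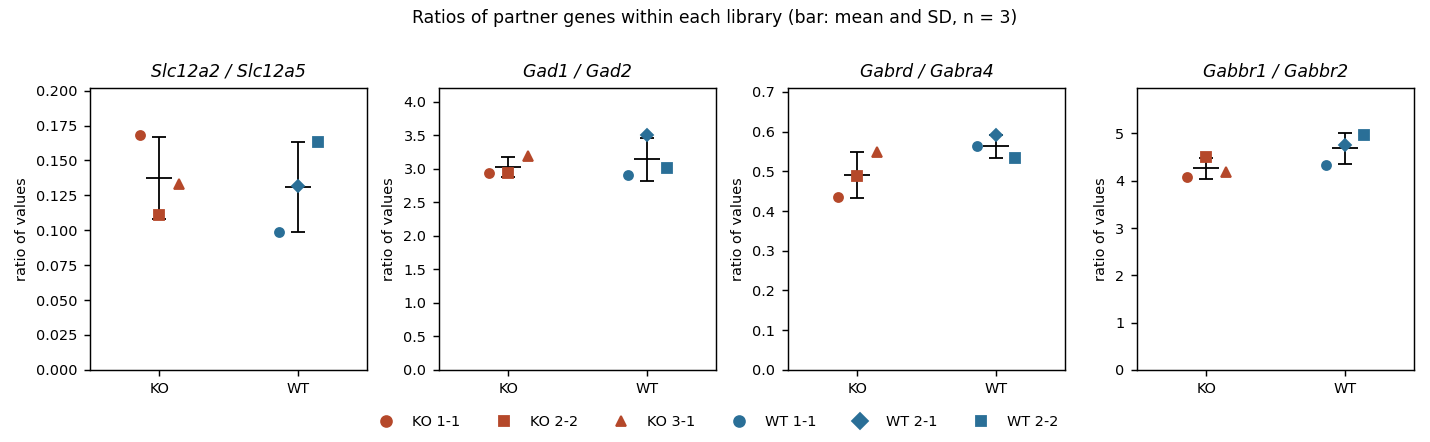
Ratio of the values of partner genes within each library, for knockout (KO, left) and wild type (WT, right), with mean and SD (n = 3 a group). The knockout and wild-type ranges overlap in all 4 ratios.

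Levels per length differed widely between the members. Averaged over 6 libraries, Nsf (332.6) and Gabbr1 (263.1) stood above all others with no overlap of their ranges. Gad1 (111.2), Slc12a5 (110.4), Gabarap (99.3) and Gabra5 (79.1) followed as a run in which the ranges of neighbours overlapped. The range of Gabra5 did not reach that of Gabbr2 (59.1), which overlapped with that of Abat (58.3). Slc6a11, Trak2, Gad2, Gabrb2 and Slc32a1 formed an overlapping run from 43.5 to 35.2. Another run led from Gabra4 (25.1) to Gabrd (13.3). Gabrg1 (6.05), Gabrg3 (3.30) and Slc6a13 (2.69) were low, and Gabrr2, Gabrq and Gabre were below 1 on average.

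Other genes of the pathway were taken from lists of textbook members. No gene of these lists passed limma over all genes. Of 9 remaining receptor subunit and GABA transporter genes, 4 could be tested, of which 1 was higher at an unadjusted p under 0.05 and the other 3 had negative log2 fold changes. Of 9 genes of glutamine and glutamate supply, 8 had positive log2 fold changes, with a median of 0.08. In this list Slc38a3, an astrocyte glutamine transporter, averaged 22.7 in knockout and 20.3 in wild type (limma log2 fold change 0.15, unadjusted p = 0.0354, adjusted p = 0.863). Every knockout library was above every wild-type library in this gene. The most abundant of the list, Glul, which makes glutamine in astrocytes, averaged 630.4 in knockout and 598.5 in wild type, and Slc1a2, a glial glutamate transporter, 315.3 and 286.0.

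Of 7 GABA-B auxiliary and channel partners, 3 had positive and 4 negative log2 fold changes. Kcnj9, a subunit of the potassium channels that GABA-B receptors open, was at 20.5, 29.3 and 28.0 in knockout 1-1, 2-2 and 3-1, against 33.7, 37.6 and 29.0 in wild type 1-1, 2-1 and 2-2 (limma log2 fold change -0.36, unadjusted p = 0.0497, adjusted p = 0.874). Knockout 2-2 lay just above the lowest wild-type library, so the groups overlapped. The 2 most abundant of the list, Kctd12, a GABA-B auxiliary subunit, and the channel subunit Kcnj3, had log2 fold changes of 0.12 and -0.06.

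Of 13 inhibitory synapse organisers tested, 10 had positive log2 fold changes (median 0.06) and none an unadjusted p under 0.05. The most abundant, Insyn1, a partner of the gephyrin scaffold, averaged 96.2 in knockout and 97.3 in wild type. Of 13 genes of GABA-A receptor trafficking, 6 had positive and 7 negative log2 fold changes, with Ap2m1 at means of 529.2 in knockout and 525.8 in wild type and Kif5a at 427.7 and 441.8. Of 11 chloride transporters and their kinases, 7 had positive and 4 negative log2 fold changes. Car2, a carbonic anhydrase, averaged 101.3 in knockout and 102.5 in wild type. Wnk1, a kinase that regulates these transporters, was at 63.4, 58.0 and 63.8 in knockout 1-1, 2-2 and 3-1, against 42.6, 43.5 and 90.0 in wild type 1-1, 2-1 and 2-2, so that wild type 2-2 stood apart from the other wild-type libraries.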

How the data were processed

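Poly(A) RNA of hippocampus was sequenced in 3 knockout and 3 wild-type libraries. The authors deposited 1 table of normalized values, fold changes and p-values for 54393 genes. The unit is not named there; the values behave as FPKM, since the deposited values of low genes step with exonic length, and are called FPKM-like. The deposited log2 fold changes and p-values are the authors'. HISAT2 2.1.0, HTSeq, bcl2fastq and mm10 are named in the submitters' processing notes, without roles, while the design text names other aligners. The sources used here do not say whether counting used strand.

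The test was limma 3.58.1 on log2(value + 1) (R 4.3.3, empirical Bayes with a trend), on genes at 1 or more in at least 3 libraries, with Benjamini-Hochberg adjustment over all 14708. The code was checked on simulated data. Ratios were compared with exact permutation tests coded in Python 3.11.15 with numpy 2.4.6, and their p-values were adjusted with scipy 1.17.1. Figures used matplotlib 3.10.9. Positions and 3' UTRs are from GENCODE M21 (GRCm38). Alternatives were other pseudocounts, filters, scaling and variance models, a replicate block and leaving out each library. Codes 1-1 and 2-2 are shared by both genotypes, but nothing says that they pair libraries.

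Members and lists were chosen with earlier results of these data known. Named were members of each role, and, from other lists, genes with an unadjusted p under 0.05 or among the 2 highest by mean. Genes of the list of remaining receptor subunits and transporters, and some genes of other lists, are not reported here by name.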

Additional observations from a re-analysis of the deposited data

How the results depend on the processing

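No member passed limma's adjusted threshold under any of the 13 alternatives. Gabrb1 and Slc6a11 had an unadjusted p under 0.05 in all 6 fits without 1 library, and Gad2 in 3 of 6. The number of members with an unadjusted p under 0.05 ran from 2 to 5 over these fits. With the title code as a replicate block it was 1 (Gabrg1), the median log2 fold change of the members was 0.00328 and 12 of 24 were positive. Correlations of deviations between libraries of the same code were -0.0986 for 1-1 and -0.0606 for 2-2, against -0.0568 to 0.110 for unlike codes. With so few shared codes and libraries, these values cannot decide whether the codes pair the libraries. Codes 3-1 and 2-1 each stand for a single library, so the block estimate rests only on the libraries coded 1-1 and 2-2. Under the block the sign reversed for Gabra4 (-0.0225), Gabra5 (-0.0941), Gabrg3 (-0.0127), Nsf (-0.0267), Slc12a2 (-0.00128) and Slc6a13 (-0.0904). Without 1 library, log2 fold changes that reversed ran from -0.0412 to 0.0195 for Gabbr1, -0.0528 to 0.0870 for Gabra4, -0.0899 to 0.154 for Gabra5, -0.103 to 0.0829 for Gabrb2, -0.0140 to 0.0608 for Gabrg3, -3.62e-05 to 0.0728 for Nsf, -0.109 to 0.136 for Slc12a2, -0.104 to 0.0425 for Slc12a5, -0.214 to 0.477 for Slc6a13 and -0.0140 to 0.137 for Trak2. The log2 difference of the Slc12a2 to Slc12a5 ratio ran from -0.114 to 0.248, and that of Gad1 to Gad2 from -0.108 to 0.0284. In all, 285 of 310 alternative values of single members kept their direction and side of the threshold. The reversals all came from the block or from leaving out a library. Changes of the filter or of the variance model leave a log2 fold change as it is by construction. No member came near the threshold in any fit (smallest limma adjusted p = 0.755), so keeping its side says little about robustness. The count of all genes called was 4 to 19 under these alternatives, except 0 under the block.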

Other observations

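Markers of other tissue compartments differed between libraries as well. The summed value of 10 choroid plexus markers was 21.3, 18.2 and 9.40 in knockout 1-1, 2-2 and 3-1, against 7.52, 7.60 and 9.11 in wild type 1-1, 2-1 and 2-2, and 6 of these markers were below 1 in every library. The summed value of 8 ependymal markers was 22.1 to 49.8 in knockout libraries and 21.9 to 34.1 in wild-type libraries, highest in knockout 1-1. Of 7 CA1 pyramidal cell markers, 5 had negative log2 fold changes, and 3 of them an unadjusted limma p under 0.05 (smallest adjusted p = 0.766). Over all tested genes 3.11% were lower at that p. Their sum was 170.3 to 220.0 in knockout libraries and 187.2 to 259.5 in wild-type libraries. Ska2, whose gene hosts the microRNA, was at 5.44, 5.17 and 6.14 in knockout 1-1, 2-2 and 3-1, against 5.80, 5.70 and 6.08 in wild type 1-1, 2-1 and 2-2, with overlapping groups.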
